A study of Mus musculus with 2 samples.

Results

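Mir22 is the gene of miR-22, a microRNA, one of the short RNAs that guide the silencing of messenger RNAs. It was taken by its GENCODE M21 symbol and matched by Ensembl identifier (ENSMUSG00000065529.1), and it is 1 of 2202 microRNA genes counted in the series. The measurement was sequencing of RNA inserts under 30 nt from the gastrocnemius, a calf muscle, of male B6CASTF1/J mice aged 2 months, an F1 hybrid of the C57BL/6J and CAST/EiJ strains. The series holds 2 libraries of 1 group, biological replicates 1 and 2. The labels give each library its own biosample and both the same donor record, so the spread between them may be technical in part.

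MicroRNA genes are transcribed as longer precursors that fold into hairpins, and the hairpin is cut into a duplex of which either arm can be loaded into the silencing complex. The loaded arm finds its targets mainly through its seed, bases 2 to 8, which pairs with sites in messenger RNAs. miR-22 is known as an abundant microRNA of heart and skeletal muscle. Mice that lack it show a weaker growth response of the heart to stress, and its known targets include the deacetylases Hdac4 and Sirt1, the repressor Purb and the DNA demethylase Tet2.

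The hairpin and both arms are shown because every read counted for Mir22 comes from this stretch. The sequences are those of RefSeq on GRCm38.p6, the assembly also called mm10, at chr11:75463716-75463810 on the plus strand, and the hairpin was identical to the gene sequence in GENCODE M21. Capitals mark the 2 arms in the hairpin, and the seed in each mature microRNA.
Mir22 hairpin: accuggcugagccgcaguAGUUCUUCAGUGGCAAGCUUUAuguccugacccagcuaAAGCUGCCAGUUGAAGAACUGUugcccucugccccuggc
miR-22-5p: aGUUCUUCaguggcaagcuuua
miR-22-3p: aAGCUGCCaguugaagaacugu

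The 5p arm spans positions 19 to 40 of the 95 bases and the 3p arm positions 57 to 78, with 16 bases between them. In the fold of lowest free energy (-41.9 kcal/mol, RNAfold), 19 of the 22 bases of miR-22-3p paired with miR-22-5p, and all 7 seed bases of each arm were paired. The deposited counts are per gene, so reads of the 2 arms cannot be told apart.

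Neither seed of miR-22 was found in a mature microRNA of another mouse gene among the 1738 in the RefSeq table, which is not complete. For the 3p arm no other entry shared even bases 2 to 7. For the 5p arm 2 entries did, miR-6935-3p and miR-7092-3p. Mir6935 had 0 counts in replicate 1 and 1 in replicate 2, and Mir7092 had 0 in both. Of the 8 genes next to Mir22 in abundance, 7 had mature sequences in the table and all 7 shared a seed with at least 1 other gene. The let-7 gene Mirlet7i, for example, did so with 12. The share over all genes of the RefSeq table was not counted, so these values do not show that an unshared seed is unusual.

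Mir22 was annotated in exon 2 of both transcripts of its host, Mir22hg, a long non-coding RNA gene at chr11:75461539-75466676 on the same strand. The hairpin began 2177 bases after the start of the host. The shorter form of that exon, of 165 bases, also belonged to an annotated transcript of Tlcd2, a protein-coding gene on the same strand that overlaps the host. Mir22 had no companion: the nearest microRNA genes on the chromosome lay 145 kb before it (Gm47300) and 87.6 kb after it (Mir3971), and neither had a count in either library. Of the 25 microRNA genes of highest mean abundance, 10, Mir22 included, had no microRNA gene on the same strand within 10 kb, and 15 had one.

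**Figure D1:**
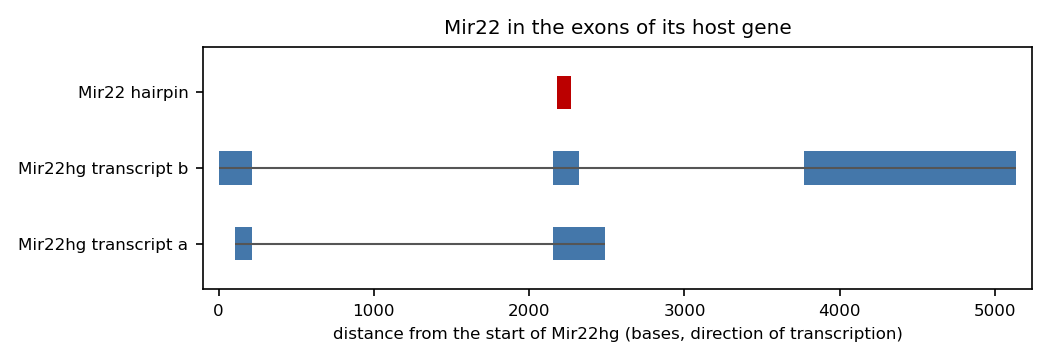
Map of Mir22hg drawn to scale. The horizontal axis gives the distance in bases from the start of the host gene in the direction of transcription. Blue boxes are the exons of its 2 annotated transcripts, lines are introns, and the red box is the Mir22 hairpin, 95 bases long, which lies within exon 2 of both.

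Counted by reads assigned to a single gene, Mir22 was among the 12 microRNA genes of highest mean level in these libraries. It had 20155 counts in replicate 1 and 61821 in replicate 2. Scaled to each library's total over microRNA genes, which was 638779 and 2272132, this made 31552 counts per 1000000 assigned counts (CPM) in replicate 1 and 27208 in replicate 2, the higher level being that of the shallower library. The mean was 29380 ± 3072 CPM (SD, n = 2), or 2.94% ± 0.307 of the assigned counts. In replicate 1 the share had an exact Clopper-Pearson 95% interval of 3.11 to 3.20%, and in replicate 2 one of 2.70 to 2.74%. The intervals did not overlap, so the libraries differed by more than counting error. Such intervals cover counting error only, because reads amplified by PCR and lacking molecular identifiers do not count molecules.

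The size of the share depends on the denominator. When Mir378a, Mir126a and Mir143, the 3 genes of highest mean CPM, were left out of the total, Mir22 held 5.16% of the remainder in replicate 1 and 4.18% in replicate 2. Against all reads of the library it held 0.543% and 0.439%. Reads matching several places in the genome made up 75.2% and 74.4% of all reads and were assigned to no gene.

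How far multi-mapping could touch Mir22 itself was checked on sequence. No run of 20 of its bases occurred in another microRNA gene elsewhere in the genome annotation, whereas 1087 of the 2202 genes had such a run. Among 141767 GENCODE M21 transcripts, a run of 18 bases of either arm occurred only in Mir22, its host Mir22hg and the overlapping Tlcd2, which all hold the same stretch of chromosome 11. Copies in the genome outside annotated transcripts were not analysed here, nor was the effect of CAST alleles on matching. Every count of Mir22 lay on its own strand: the opposite strand had 0 counts in both libraries, which allows up to 0.0149% of the same-strand count in replicate 1 and 0.00485% in replicate 2. The count with strand ignored was therefore the same as the same-strand count in each library.

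By mean CPM Mir22 ranked 12 of 2202, at rank 10 in replicate 1 and rank 12 in replicate 2. Dividing each level by the annotated length of the gene left the mean rank at 12. Of the 11 genes above it, 3 shared a run of 20 bases with another microRNA gene, so their levels leave out reads that match both. The rest of the 1087 genes with such a run lay below Mir22 and lack such reads too, so the rank holds for uniquely assigned reads and some of these microRNAs could stand above it. Among the 1115 genes with no such run it ranked 9. Its mean CPM was 345 times the median of the 311 genes that reached 10 counts over the 2 libraries together.

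The genes next above Mir22 were Mir99a, Mir206, Mirlet7i and Mir30a. Mir99a, a gene of a let-7 and miR-125 cluster, had 28013 CPM in replicate 1 but 34625 in replicate 2. Mir206, the skeletal muscle member of the miR-1 family, had 20325 and 48078. The order of Mir22 against both differed between the libraries: Mir22 was 1.13 times Mir99a in replicate 1 and 0.786 times in replicate 2, and 1.55 and 0.566 times Mir206. These 3 genes cannot be ranked beyond their spread. Mirlet7i, of the growth-restraining let-7 family, had 37296 and 36837 CPM, and Mir30a, of a family widely expressed in muscle, had 40421 and 34518. Both lay above Mir22 in each library, and their ranges did not overlap its own.

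Below Mir22 came a step. The next gene, Mirlet7d, had 19260 CPM in replicate 1 against 18832 in replicate 2, so Mir22 was 1.64 and 1.44 times as high. Mir21a, which is raised in fibrosis, had 19072 and 10899 CPM. Mir100, related in sequence to Mir99a, had 10993 and 17432, and Mir30d had 15166 and 12370. Mir22 exceeded all 4 in both libraries. Over the whole table, only Mir206 and Mir99a had a range between libraries that overlapped that of Mir22.

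**Figure D2:**
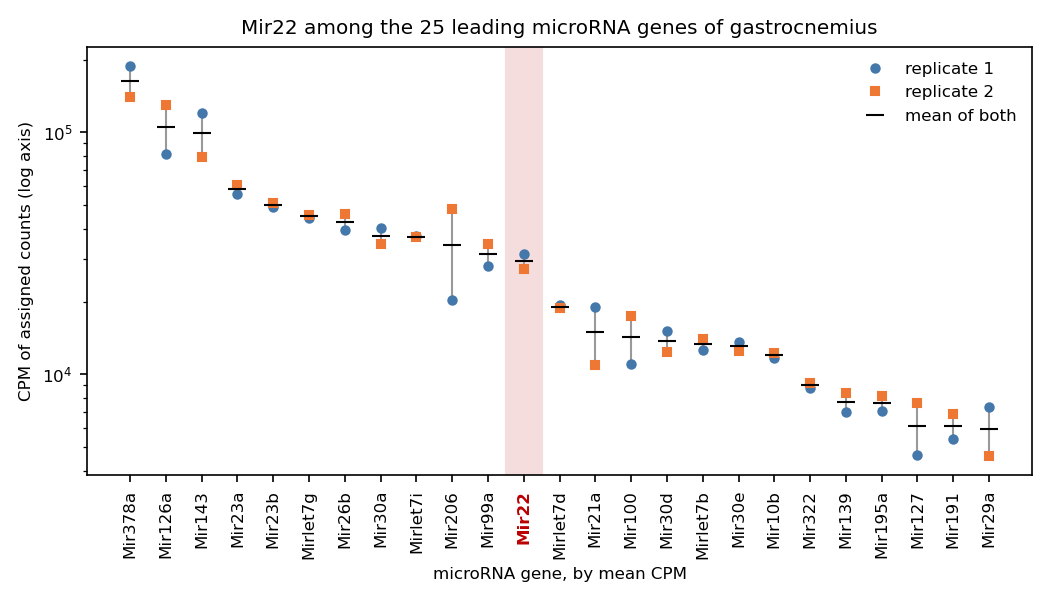
CPM of assigned counts (vertical log axis) for the 25 microRNA genes of highest mean CPM, in order of the mean. Circles are replicate 1, squares replicate 2, black bars the mean, and grey lines join the 2 libraries. Mir22 (shaded) sits between Mir99a and Mirlet7d, and its 2 points, 31552 and 27208, lie close together next to the wide range of Mir206.

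The level of Mir22 was 1.16-fold higher in replicate 1 (95% interval of counting error 1.14 to 1.18), a log2 ratio of -0.21 for replicate 2 over replicate 1. With 1 library on each side the difference has no replicate check and carries no p-value. Of those 311 genes, 103 (33.1%) differed by 1.5-fold or more, 61 of them higher in replicate 2 and 42 lower, and Mir22 was not among them. The 95% counting interval of the ratio left out 1 for 138 of the 311 (44.4%), Mir22 included. An absolute log2 ratio smaller than that of Mir22 was found for 98 of the 311 (31.5%), and the median over the 311 was 0.39. Among the 25 most abundant genes the median was 0.23, 10 had a smaller absolute ratio than Mir22, and 7 passed 1.5-fold. The counting interval left out 1 for 24 of these 25, so at such depth this is the usual case.

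**Figure D3:**
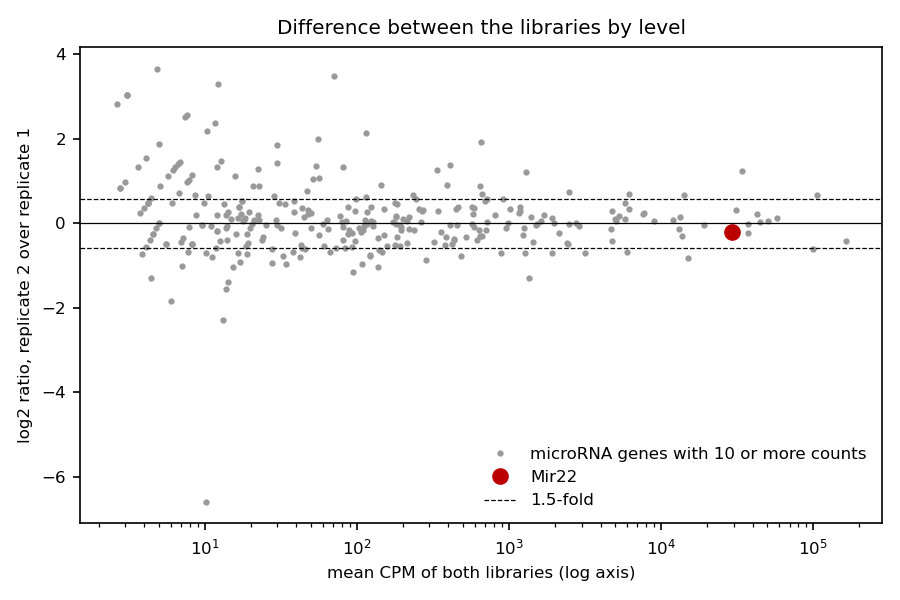
Log2 ratio of replicate 2 over replicate 1 (vertical axis, prior count 0.5) against the mean CPM of both libraries (horizontal log axis) for 311 microRNA genes. Grey points are genes, dashed lines mark 1.5-fold, and the red point is Mir22, which at -0.21 lies between the lines, below 0.

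The genes of mean CPM 1000 or more whose log2 ratio lay nearest to that of Mir22 were Mir361 (-0.23), Mir30a (-0.23), Mir17 (-0.27) and Mir27b (-0.14). This likeness rests on 2 libraries and is a description. Mir30a was also one of the neighbours in abundance, at 37470 ± 4174 CPM, while Mir361 had 2118 ± 233 CPM, Mir17 had 1243 ± 167 and Mir27b had 4674 ± 318. Mir27b shares a run of 20 bases with another gene, so its level is uncertain.

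Mir22 had the highest mean CPM among the microRNA genes that lie in an exon of a long non-coding host on the same strand. There were 73 such genes in the table (3.32% of 2202), and 39 of them were among the 311 with 10 or more counts (12.5%). After Mir22 came Mirlet7d in 6720427I07Rik at 19046 ± 303 CPM, Mir30d in Gm20732 at 13768 ± 1977, Mirlet7b in Lncppara at 13328 ± 1033, Mir191 in 4833445I07Rik at 6113 ± 1020 and Mir29c in A330023F24Rik at 1362 ± 811. Mir22 and Mir30d were higher in replicate 1 (log2 ratios -0.21 and -0.29). Mirlet7b and Mir191 were higher in replicate 2 (0.16 and 0.34). Mirlet7d differed little (-0.03). Mir29c, which shares sequence with a paralog, was far lower in replicate 2 (-1.29).

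Beside other microRNAs known to act on growth or wasting of striated muscle, Mir22 was near the top in uniquely assigned reads. The list had 23 genes, of which 22 were in the table, 20 had 10 or more counts and 1, Mir199a-1, had none. Only Mir378a, which lies in a coactivator gene of mitochondrial biogenesis, Mir23a, known to repress the atrophy ubiquitin ligases, and Mir206 had a higher mean CPM. Mir378a had 187270 CPM in replicate 1 against 139630 in replicate 2, and Mir23a had 55736 and 60529. The first is the leading gene of the series, and both share a run of 20 bases with another gene. Mir22 stood well above Mir21a (14986 ± 5779 CPM), which is known for its part in heart fibrosis and hypertrophy. Outside the rule for named genes, chosen after their values were seen, were Mir195a at 7600 ± 806 CPM, the slow myosin intron genes Mir499 at 1301 ± 731 and Mir208b at 691 ± 180, and Mir486, in an intron of Ank1, at 1011 ± 173. Of the 20 members, 5 were 1.5-fold or more higher in replicate 2, 5 were lower and 10 lay within 1.5-fold, beside 33.1% past 1.5-fold over the 311 genes. Their median log2 ratio was 0.05, against 0.04 over the 311 genes. In this list 13 of 22 share a run of 20 bases with another gene, the miR-1, miR-133 and miR-199 genes among them, so the low counts of these do not measure the microRNAs.

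**Figure D4:**
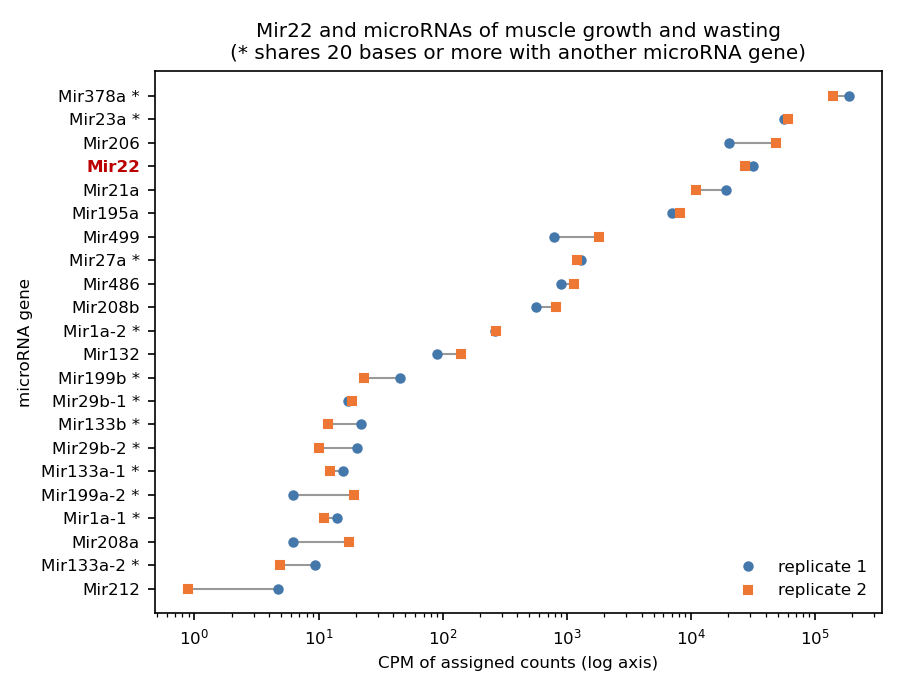
CPM of assigned counts (horizontal log axis) for Mir22 and the 21 listed genes of striated muscle growth and wasting that had a count, in order of the mean. Circles are replicate 1 and squares replicate 2, and a star marks genes that share 20 bases or more with another microRNA gene. Only Mir378a, Mir23a and Mir206 lie above Mir22, and unlike the 2 leading genes it carries no star.

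For the microRNAs known to target Hdac4 or Sirt1 the sum over 15 genes was 24526 CPM in replicate 1 and 51512 in replicate 2, mostly from Mir206. Of the 15, 10 share a run of 20 bases with another gene, the miR-1, miR-138, miR-181 and miR-199 genes, so reads of these are missing from the sum and it was not set against Mir22. Next to Mir206 stood Mir140, the cartilage microRNA, at 2399 ± 538 CPM, then Mir181b-2 at 420 ± 101 and Mir1a-2 at 265 ± 5.29, both among the 10. Of 13 with 10 or more counts, 4 were 1.5-fold or more higher in replicate 2, 1 was lower and 8 lay within 1.5-fold, with a median log2 ratio of 0.04. The share past 1.5-fold over the 311 genes was 33.1%, close to that of these 13.

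The annotation shows where miR-22-3p could pair in the targets named above, which were not measured here. The letters searched were GGCAGCT, the reverse complement of its seed, on the transcript strand of the longest annotated 3' untranslated region of each gene. Over whole regions, of 1631 to 7313 bases, all 4 held them: Hdac4, Sirt1 and Tet2 once and Purb at 2 positions. In Sirt1 the match was followed by A, giving GGCAGCTA, the longer form of site, and in the other genes it was not. The sites of the 2 deacetylases are shown with the match in capitals to compare both forms, at chr1:91929849-91929871 for Hdac4 (position 3491 of the region) and chr10:63320154-63320176 for Sirt1 (position 475), both on the minus strand of GRCm38.
Hdac4: ttgcacgccaaactcGGCAGCTt
Sirt1: ttttccaaaacttgtGGCAGCTa

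As background, GGCAGCT occurred in 12.7% of the whole regions of 21067 genes, and GGCAGCTA in 1.96%, over regions of all lengths. At matched length, the first 1000 bases held GGCAGCT in Sirt1 and Purb but not in Hdac4 and Tet2, against 10.5% of the 10219 regions at least that long, and GGCAGCTA in Sirt1, against 1.35%. The 4 genes were chosen as known targets of miR-22, so the matches are a description of the sequence and say nothing about silencing in these muscles.

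Markers of skeletal muscle, the labelled tissue, were present in both libraries beside those of other cell types. All 8 skeletal muscle markers had counts, summing to 21995 CPM in replicate 1 and 51024 in replicate 2, mostly from Mir206. The endothelial markers summed to 81286 and 129798 CPM (Mir126a), those of smooth muscle to 123068 and 81451 (Mir143 and Mir145a), those of fibroblasts to 626 and 895 with Mir199a-1 at 0, the erythroid pair to 6176 and 4688 (Mir451a and Mir144), and the 4 leukocyte markers to 2542 and 2889. Epithelial markers summed to 225 and 215 CPM, those of liver and islet to 18.8 and 35.6, and Mir208a of the heart had 6.26 and 17.6. Of the 6 neural markers 5 were at 0, and all 6 share sequence with copies, so reads of these may be missing. The same holds for 5 of the 8 skeletal muscle markers and 3 of the 4 fibroblast markers. The sizes of these sums therefore cannot be set against those of the other cell types. Like Mir22, the smooth muscle, erythroid and epithelial sums were lower in replicate 2, at 0.662, 0.759 and 0.953 times replicate 1, whereas those of skeletal muscle, endothelium, fibroblasts, leukocytes and liver and islet were higher, at 2.32, 1.60, 1.43, 1.14 and 1.90 times. Except for the epithelial sum, these sums went in the direction of their leading genes, and the ratios of some single markers pointed the other way. Of the 8 skeletal muscle markers 4 had a lower level in replicate 2, all 4 sharing sequence with copies. Mir133b was at 0.542 times (interval 0.275 to 1.12) and Mir133a-1 at 0.787 times (0.371 to 1.82). Mir133a-2 was at 0.515 times (0.175 to 1.70) and Mir1a-1 at 0.781 times (0.353 to 1.90). These 4 rest on 6 to 14 counts in replicate 1 and 11 to 28 in replicate 2. All 4 intervals held 1, so the direction of these 4 is uncertain. The median log2 ratio of the 8 was -0.18. Mir199b of the fibroblasts (0.514 times) and the leukocyte genes Mir142 (0.732) and Mir223 (0.827, interval 0.661 to 1.04) were lower too. Mir203, the leading epithelial marker, was at 1.03 times (interval 0.831 to 1.29), and Mir122, the leading marker of liver and islet, at 1.91 times (0.979 to 4.17). Both intervals held 1, and none was computed for the sums. The directions of the epithelial sum and the liver and islet sum are therefore uncertain. The part of these cell types in the Mir22 difference was not tested. In bulk tissue, fewer cells of a type and less RNA per cell cannot be told apart.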

How the data were processed

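MicroRNA sequencing was deposited for 2 gastrocnemius libraries of 1 group, as 1 table of raw counts per microRNA gene for each. The accompanying texts name mm10 and GENCODE M21. The aligner and counter of the authors are not given in the sources used. Column 3 of each table, the counts on the strand of the gene, was used. The tallies of reads assigned to no gene (82.8% and 83.9% of all reads) stayed out of the totals. Counts were scaled to CPM of the column total. All 2202 identifiers matched GENCODE M21.

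With 1 group there is no test between conditions. Ratios carry exact conditional 95% intervals of counting error. On counts drawn at random (Poisson) for 299 genes, the model that the intervals assume, they held the true ratio for 94.3%. This checks the calculation only and does not cover error from PCR. Log2 ratios used a prior count of 0.5, and only genes reaching 10 counts over the 2 libraries together were compared. The spread of 2 libraries sets the error of every level, and replicate 2, with 3.56 times the counts, has the narrower intervals. The member and the gene lists were chosen with earlier results of these data known. Named genes were the 4 on either side in mean CPM, the 4 nearest in log2 ratio at 1000 CPM or more, up to 4 of each list, up to 6 in exons of long non-coding hosts and those sharing a seed. The 4 target genes were picked later, as were 2 alternatives. Results of 1 gene list are not reported here. Other alternatives were the unstranded column, other totals, TMM and DESeq2 scaling, filters, the prior count and each library left out. Software was Python 3.11.15, pandas 2.3.3, numpy 2.4.6, scipy 1.17.1, matplotlib 3.10.9, RNAfold 2.7.2, R 4.3.3, edgeR 4.0.16 and DESeq2 1.42.0. Sequences came from RefSeq (GRCm38.p6), where 968 of 1005 hairpins matched a symbol of the count table. Signal tracks were not analysed here.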

Additional observations from a re-analysis of the deposited data

How the results depend on the processing

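Mir22 kept a lower level in replicate 2 under every scaling and total tried. Only this ratio was checked for a reversal of direction, and none was found. Of 34 alternative values, 21 stayed within the spread of the libraries, the counting interval or 1.5 times the count. This tally is no measure of robustness. With 2 libraries, a mean level or share with either left out stays within the SD by arithmetic. The values for the share also repeat those for CPM. With strand ignored, the mean was 41962 CPM (4.20%) and the rank 10, since genes overlapped by another on the other strand then drop out of the total. Without Mir378a, Mir126a and Mir143 in the total it was 46703 CPM (4.67%), and per 1000000 of all reads it was 4914. The rank was 9 among genes sharing no run of 20 bases, an alternative chosen after seeing the data, and between 10 and 12 with either library left out. The ratio of replicate 2 to replicate 1 was 0.862, and 0.809, 0.827 and 0.808 without those 3 genes, with TMM scaling and over all reads. Genes past 1.5-fold numbered 221 with no filter on low counts (549 compared) and 46 with 100 counts or more (191 compared), in place of 103. No paired analysis was possible because the series has 1 group. Depth limits little for Mir22: its level rests on 20155 counts or more, and a count of 0 allows 4.70 CPM in replicate 1 and 1.32 CPM in replicate 2.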
